A study of Drosophila melanogaster with 2 samples.

Results

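The 10 heat shock genes described here are the Hsp90 gene Hsp83, the small heat shock genes Hsp22, Hsp23, Hsp26 and Hsp27, their neighbours Hsp67Ba, Hsp67Bb and Hsp67Bc, the Hsp70-family gene Hsp68, and Hsf, which encodes heat shock factor. They were chosen by name from 13945 protein-coding genes on the main chromosome arms of Drosophila melanogaster, and 7 of the 10 lie together in the 67B cluster on arm 3L. The measurement was chromatin immunoprecipitation with sequencing (ChIP-seq) of CG6683, carried as a fusion with GFP at its C-terminus by a transgenic fly line and recovered with an antibody against GFP. Chromatin came from whole embryos of both sexes aged 6 to 24 hours, so the peaks average over all embryonic tissues and stages in that span. The ages come from the source name, since the separate age label could not be interpreted. There was 1 group with 2 biological replicates, numbered 2 and 3 in the labels, and no heat treatment is named for either. The peak lists were made against a control alignment, but no group without the tagged protein was analysed here.

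Heat shock proteins are chaperones that bind unfolded or damaged proteins. Hsp90 and Hsp70 use ATP, whereas the small heat shock proteins share an alpha-crystallin domain and hold unfolding proteins without ATP. On heat stress, heat shock factor forms trimers that bind heat shock elements, arrays of short inverted GAA units upstream of these genes. GAGA factor, which binds GAGAG repeats, is known to keep several of these promoters free of nucleosomes before heat. Several of the genes are also expressed without heat in Drosophila, Hsp83 in most cells and the small heat shock genes at set times of development, in part under the steroid hormone ecdysone.

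CG6683 peaks were strong at Hsp83 and Hsp27 and of middle strength at Hsp26 and Hsp22. The other members had at their starts only candidates outside the authors' optimal list, or none. A peak was assigned to a gene when its summit lay within 500 bp of an annotated transcription start. By that rule 4 of the 10 genes, Hsp83, Hsp27, Hsp26 and Hsp22, had a summit of the authors' optimal list, the peaks that passed their reproducibility threshold, beside 13.3% of all protein-coding genes. The pooled candidate list is labelled as peaks and background, so a candidate below the threshold need not be a peak. The median signal of that list was 55.3. Including all pooled candidates, most of which lie below that threshold, 9 of the 10 genes had a summit, beside 50.5% of all protein-coding genes. Hsp67Ba was the exception. The strength of a peak is given as the authors' signal value, a score per peak with no stated normalization, so signals are compared within a list and ranks between lists.

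The promoter and summit sequences that follow are shown because they hold the summits or the consensus matches that the results refer to. They were read from the RefSeq Release 6 genome and are written 5′ to 3′ on the strand of the gene. Capitals mark matches to the heat shock element with 3 units (GAA, TTC and GAA, each 2 bases apart, or their reverse complement), with at most 1 of its 9 fixed letters changed, exact matches to its forms with 2 units, GAANNTTC and TTCNNGAA, and the TATA box TATAAA. The Hsp27 sequence, chr3L:9383713-9384012 on the plus strand, covers -350 to -51 bp from the start and includes the summit at -137 bp.
Hsp27: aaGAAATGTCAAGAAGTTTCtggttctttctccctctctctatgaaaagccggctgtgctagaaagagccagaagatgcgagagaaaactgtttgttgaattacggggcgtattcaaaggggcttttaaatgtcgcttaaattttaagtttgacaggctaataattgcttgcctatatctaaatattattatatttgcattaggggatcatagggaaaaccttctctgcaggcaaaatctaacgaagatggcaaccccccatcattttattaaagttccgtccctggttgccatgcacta
The Hsp26 sequence, chr3L:9377428-9377677 on the minus strand, covers -250 to -1 bp from the outer start and includes the summit at -127 bp. Its last capitals belong to matches that run on past the start.
Hsp26: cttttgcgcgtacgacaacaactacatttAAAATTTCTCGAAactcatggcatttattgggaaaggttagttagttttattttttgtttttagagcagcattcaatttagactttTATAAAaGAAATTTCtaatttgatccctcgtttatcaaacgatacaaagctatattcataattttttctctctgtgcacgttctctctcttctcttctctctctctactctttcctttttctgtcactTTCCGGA
The Hsp23 sequence, chr3L:9381632-9381881 on the plus strand, covers the same span of its promoter, with only a weak candidate summit at -153 bp.
Hsp23: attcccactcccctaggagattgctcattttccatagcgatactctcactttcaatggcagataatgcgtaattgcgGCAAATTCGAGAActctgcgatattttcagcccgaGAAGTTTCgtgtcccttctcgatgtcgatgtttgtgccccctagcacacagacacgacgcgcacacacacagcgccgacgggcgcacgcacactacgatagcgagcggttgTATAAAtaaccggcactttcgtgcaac
The Hsp68 sequence, chr3R:24057311-24057560 on the minus strand, covers -250 to -1 bp and holds the only exact elements with 3 units in this span of a member promoter, again with only weak candidates.
Hsp68: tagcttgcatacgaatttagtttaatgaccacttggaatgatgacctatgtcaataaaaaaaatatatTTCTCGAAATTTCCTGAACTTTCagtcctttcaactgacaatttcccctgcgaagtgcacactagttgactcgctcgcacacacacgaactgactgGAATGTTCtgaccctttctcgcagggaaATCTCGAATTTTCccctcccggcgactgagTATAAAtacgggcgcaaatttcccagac
At Hsp83 the element array at chr3L:3193136-3193165 on the plus strand, -80 to -51 bp from the inner start, was as follows.
Hsp83: caGAAGCCTCTAGAAGTTTCTAGAGACTTC
At Hsp22 the element at chr3L:9373902-9373931 on the plus strand, -95 to -66 bp from the inner start, was as follows.
Hsp22: agggcgaaGAAAATTCGAGAGagtgccggt
The second optimal summit of Hsp83, inside an intron, is shown with 100 bp to each side as chr3L:3194183-3194383 on the plus strand. It has no capitals because it held none of these matches.
Hsp83 intron: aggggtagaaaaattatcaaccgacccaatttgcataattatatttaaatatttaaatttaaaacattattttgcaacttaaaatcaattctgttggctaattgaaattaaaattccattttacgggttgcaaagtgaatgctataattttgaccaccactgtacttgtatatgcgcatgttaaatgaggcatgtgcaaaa

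The replicate numbers need care. Comparing the lists of both builds without converting coordinates, the dm6 replicate 3 list shared 6080 identical intervals (20.3%) with the dm3 replicate 2 list and 1 with the dm3 replicate 3 list. The dm6 replicate 2 list shared 6565 (21.9%) with the dm3 replicate 3 list and 0 with the other. The numbers thus appear crossed between the builds, and which dm6 list belongs to which sample cannot be told apart from these files. All statements that compare both dm6 lists stand whichever number is right.

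Hsp83 (FBgn0001233, 3L, 3192969 to 3197059, plus strand) encodes the cytosolic Hsp90, which many kinases and steroid receptors need to reach their active form. It had the strongest peak of the members and was the only one with 2 optimal summits nearest to its own starts. The peak at its promoter spanned 3192804 to 3193282 and had a signal of 1059 in the pooled list, rank 66 of 2964 optimal peaks on the main arms. The replicate 3 list gave it a signal of 636 and rank 63, and the replicate 2 list a signal of 426 and rank 85. The ranks in both replicates thus stood near the top of lists of about 30000 candidates. Its summit at 3193105 lay 111 bp upstream of the inner of the 2 annotated starts (3193216) and 136 bp downstream of the outer one (3192969), in the 5′ UTR of the longer transcript. The summits of both replicates fell within 1 bp of it. Of all protein-coding genes, 52, or 0.373%, had an optimal summit at a start with a signal at or above that of Hsp83.

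The other Hsp83 peak lay at 3194132 to 3194405 in an intron, with its summit 1067 bp downstream of the inner start. Its signal was 519 and its rank 395 in the pooled list. The rank was 541 in the replicate 3 list and 301 in the replicate 2 list, so both samples placed it well inside the range of the optimal peaks. Optimal summits inside the gene were found in 3 of the 10 members (Hsp83, Hsp22 and Hsp67Bb), beside 9.04% of all protein-coding genes. Hsp22 and Hsp67Bb overlap and were counted through the same peak. Past the 3′ end of Hsp83, a candidate of signal 112 and rank 5759 lay 590 bp beyond the gene and 18 bp upstream of the start of CG14966.

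The 67B cluster runs from 9371511 to 9385694 on 3L, 14184 bp with 10 annotated genes, of which 8 are protein-coding. From left to right these are Hsp67Bc, Hsp67Bb, Hsp22, CG4461, Hsp26, Hsp67Ba, the antisense RNA asRNA:CR43481, Hsp23, Hsp27 and the pseudogene CR43483. The cluster held 6 pooled summits, of which 3 were optimal, and these 3 were carried by Hsp22, Hsp26 and Hsp27. Of 9435 adjoining genome windows of the same length, 197, or 2.09%, held 3 or more optimal summits, with no allowance for how many genes a window holds. The map of summits across the cluster shows that the signal was uneven, with the right end several times above the rest.

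**Figure D1:**
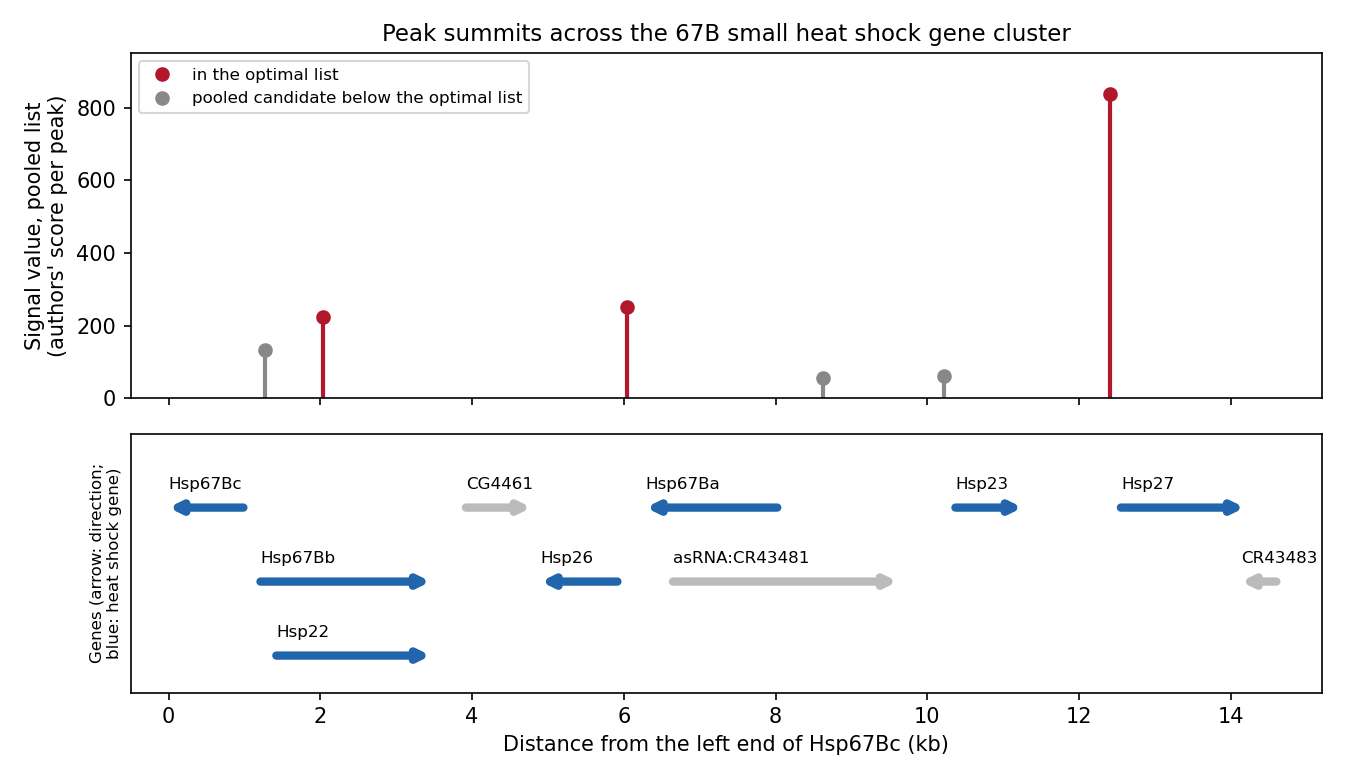
Signal value of each pooled summit (vertical axis, the authors' score per peak) by distance from the left end of Hsp67Bc (horizontal axis, kb), with genes of the cluster as arrows in the direction of transcription, blue for the 7 heat shock genes described. The red summits of the optimal list lie at Hsp22 (225), Hsp26 (251) and Hsp27 (837), and the 3 grey ones, which are candidates below the optimal list, reach at most 132.

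Hsp27 (FBgn0001226, 9384063 to 9385694, plus strand), a small heat shock protein found in the nucleus, had the strongest peak of the cluster. The peak spanned 9383736 to 9384084 and had a signal of 837 and rank 134 in the pooled list. The replicate 3 list gave it a signal of 500.4 and rank 140, and the replicate 2 list a signal of 340.5 and rank 144. Both replicates and the pool thus placed it within 10 ranks of each other. Its summit at 9383926 lay 137 bp upstream of the single annotated start, in the intergenic stretch after Hsp23, and the replicate summits fell 1 and 9 bp from it. Of all protein-coding genes, 110, or 0.789%, had an optimal summit at a start with a signal at or above this one. The same peak lies 1161 bp past the 3′ end of Hsp23 and is the optimal peak nearest to that gene, but it is 2044 bp from the Hsp23 start.

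Hsp26 (FBgn0001225, 9376418 to 9377427, minus strand) encodes a cytosolic small heat shock protein. Its peak spanned 9377497 to 9377653, the narrowest of the member peaks at 157 bp, with a signal of 251 and rank 1592 in the pooled list. The signal was 150.2 and the rank 1642 in the replicate 3 list, and the signal was 104 and the rank 1945 in the replicate 2 list. The summit at 9377554 lay 127 bp upstream of the outer start (9377427) and 179 bp upstream of the inner one (9377375). It sits in the intergenic stretch between Hsp26 and Hsp67Ba, which is transcribed in the same direction and whose 3′ end lies 248 bp away. Genes with an optimal summit at a start and a signal at or above that of Hsp26 numbered 1077, or 7.72% of protein-coding genes.

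Hsp22 (FBgn0001223, 9372931 to 9374964, plus strand) encodes a mitochondrial small heat shock protein. Its peak spanned 9373440 to 9373623, with a signal of 225 and rank 1881 in the pooled list. The replicate 3 list gave a signal of 113 and rank 2626, and the replicate 2 list a signal of 116 and rank 1560. Its summit at 9373552 was the farthest from a start among the 4 genes, 445 bp upstream of the inner Hsp22 start (9373997) and 621 bp downstream of the outer one (9372931). RefSeq describes Hsp22 and its overlapping neighbour as dicistronic genes, and the summit lay both in the 3′ UTR of Hsp67Bb and in the 5′ UTR of the long Hsp22 transcript. Counting only the outermost start of each gene, Hsp22 would have no optimal summit within 500 bp. Genes with an optimal summit at a start and a signal at or above that of Hsp22 numbered 1250, or 8.96% of protein-coding genes.

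Hsp67Bb and Hsp67Bc share 1 candidate. Hsp67Bb (FBgn0001228, 9372722 to 9374964, plus strand, annotated as CG4456) encodes a rhodanese-domain protein, and Hsp67Bc (FBgn0001229, 9371511 to 9372497, minus strand) a small heat shock protein that works in autophagy with the co-chaperone Starvin. The genes are divergent neighbours. The candidate at their starts, 9372557 to 9373000, had a signal of 132 and rank 4414 in the pooled list, below the last optimal peak on the main arms, which had a signal of 170.6 and rank 2964. The replicate 3 list gave it a signal of 58.8 and rank 7422, and the replicate 2 list a signal of 70.7 and rank 3954. The summit lay 57 bp downstream of the outer Hsp67Bb start, 282 bp upstream of the Hsp67Bc start and 152 bp upstream of the outer Hsp22 start, so the 3 genes cannot be told apart as its carrier. A candidate of nearly the same signal, 133 at rank 4367, lay 352 bp past the 3′ end of Hsp67Bc and 79 bp downstream of the start of Fdx1.

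Hsp23 and Hsp67Ba had the weakest candidates of the 7 cluster members. Hsp23 (FBgn0001224, 9381882 to 9382765, plus strand), a cytosolic small heat shock protein, had a candidate 153 bp upstream of its start with a signal of 60.5 and rank 13365. The replicate 2 list held it at a signal of 39.96 and rank 9881, and the replicate 3 list held no candidate there. Hsp67Ba (FBgn0001227, 9377802 to 9379534, minus strand), also of the small heat shock family, had no candidate within 500 bp of its start. The nearest one upstream lay 601 bp away, with a signal of 54.9 and rank 15124 in the pooled list. Its summit was in an exon of asRNA:CR43481, 224 bp before an inner start of that RNA. This candidate too was held in the replicate 2 list (rank 8683) and not in the replicate 3 list. Inside Hsp67Ba, the only candidate of any list was 1 in the replicate 2 list, at a signal of 19.6 and rank 23202. CG4461, the small heat shock gene between Hsp22 and Hsp26, had no candidate within 500 bp of a start.

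Hsp68 (FBgn0001230, 3R, 24055080 to 24057310, minus strand) is a heat-inducible gene of the Hsp70 family. It had 2 candidates near its start, and each had a matching summit, one within 200 bp, in only 1 replicate list. The candidate 171 bp downstream of the start had a pooled signal of 57.7 at rank 14223 and was at rank 10536 in the replicate 3 list. The candidate 98 bp upstream had a pooled signal of 50.005 at rank 16987 and was at rank 6402 in the replicate 2 list. The optimal peak nearest to Hsp68, at 24057969 to 24058412, had a signal of 177 and rank 2791, close to the last optimal peak. Its summit lay 881 bp upstream of Hsp68 but 96 bp upstream of SMC1, which encodes a cohesin subunit. The replicate 3 list ranked it 3197 and the replicate 2 list ranked it 4423.

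Hsf (FBgn0001222, 2R, 18130303 to 18134634, minus strand), the regulator of the group, was the only member with no optimal summit inside it or within 2 kb. The other 9 had one, beside 25.1% of all protein-coding genes, but for Hsp23, Hsp67Ba, Hsp67Bb, Hsp67Bc and Hsp68 that summit lay nearer to the start of another gene. Within Hsf there were 5 weak candidates. The one nearest to its start, 295 bp downstream in an intron, had a signal of 60.8 and rank 13278. The replicate 2 list had a candidate 22 bp from it at rank 15753, and the replicate 3 list had none within 200 bp. The next intron candidate, 508 bp downstream of the start, had a signal of 55.8 and rank 14806. The replicate 3 list had a candidate 6 bp from it at rank 7403. The same replicate 2 candidate, at rank 15753, lay 191 bp from it. Upstream, a candidate of signal 74.4 and rank 10207 lay 888 bp from the Hsf start and 96 bp inside Pcl, a Polycomb-group gene.

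By rank, the order of the member summits was the same in all 3 lists at the top. Hsp83 stood first, then Hsp27, then the Hsp83 intron, and then Hsp26 and Hsp22. Hsp26 and Hsp22 changed places between replicates, with Hsp26 ahead by 1642 to 2626 in the replicate 3 list and behind by 1945 to 1560 in the replicate 2 list. They therefore do not differ beyond the spread between the samples. The candidate of Hsp67Bb and Hsp67Bc followed in every list. The strongest start candidates of Hsf, Hsp23 and Hsp68 had pooled ranks of 13278 to 14223. Each was matched within 200 bp in only 1 replicate list, so these 3 genes cannot be put in order. By overlap of intervals instead, the Hsf and Hsp68 candidates had a partner in both replicate lists. The Hsp23 candidate had one only in the replicate 2 list. All 6 optimal peaks within 2 kb of a member had a candidate in both replicate lists with a summit within 100 bp.

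**Figure D2:**
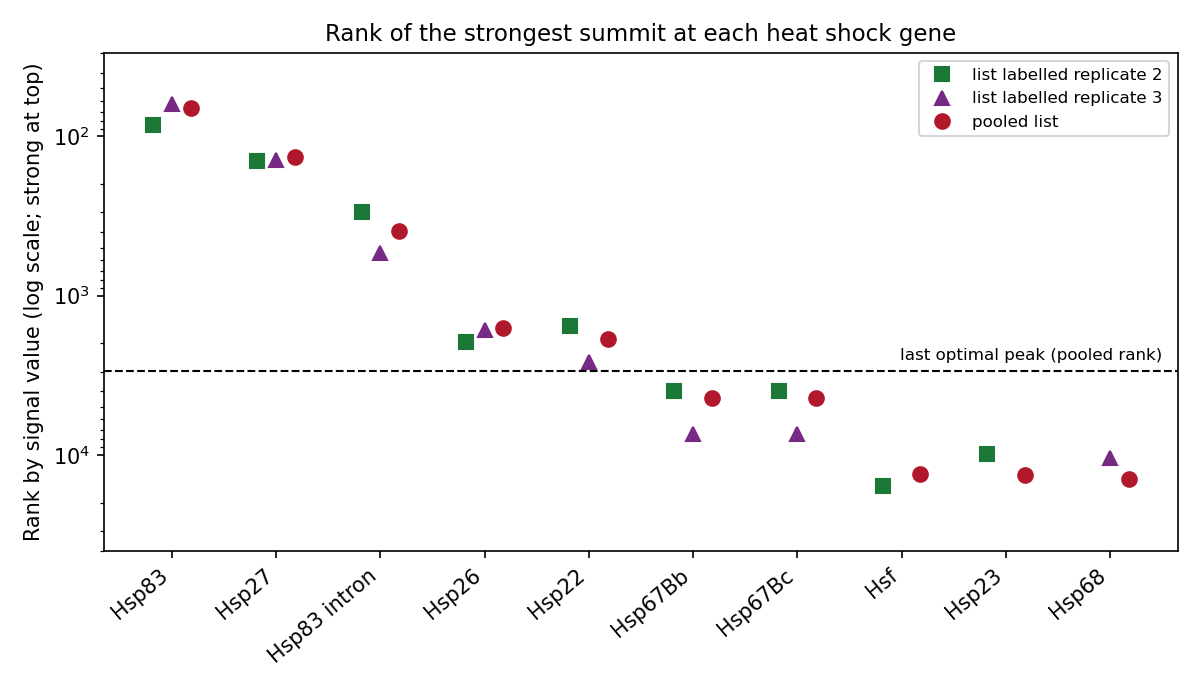
Rank by signal value (vertical axis, log scale, strong peaks at the top) of the strongest summit within 500 bp of a start of each gene and of the Hsp83 intron summit, in the replicate 2 list (green squares), the replicate 3 list (purple triangles) and the pooled list (red circles). The dashed line is the pooled rank of the last optimal peak (2964); the 5 leftmost summits lie above it in all 3 lists, and a missing symbol means no candidate within 200 bp in that list.

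Among optimal peaks at protein-coding starts, the member peaks did not stand in 1 place. There were 1468 such peaks with a median signal of 277 and a median offset of -121 bp. Hsp83 (1059) and Hsp27 (837) lay far above that median, and Hsp26 (251) and Hsp22 (225) lay below it. The offsets of Hsp83 (-111 bp), Hsp26 (-127 bp) and Hsp27 (-137 bp) were close to the median offset, and that of Hsp22 (-445 bp) was not. Genes of most similar signal were taken as the promoter peaks next above and next below in rank. Hsp83 stood between Sox14 (1067), an ecdysone-induced transcription factor gene, and CG7841 (1057). Hsp27 stood between CG3961 (842) and p38a (835), a stress-activated kinase gene. Hsp26 stood between CG4199 and Rrp6, a gene of the nuclear exosome, both also at 251. Hsp22 stood between mub, an RNA-binding protein gene, and RpL3, a ribosomal protein gene, both also at 225.

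**Figure D3:**
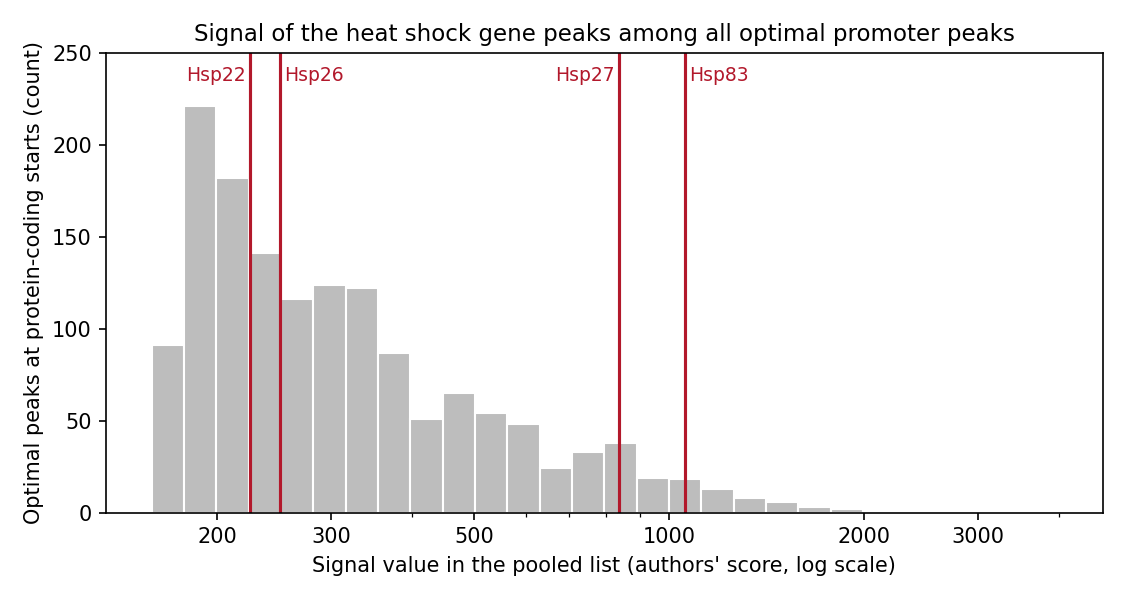
Number of optimal peaks at protein-coding starts (vertical axis) by signal value in the pooled list (horizontal axis, log scale), with red lines at the promoter peaks of Hsp22 (225), Hsp26 (251), Hsp27 (837) and Hsp83 (1059). Hsp22 and Hsp26 fall in the crowded lower range and Hsp27 and Hsp83 in the sparse upper tail.

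Other chaperone genes were read from a list of 55 names, of which 52 were found in the annotation. Of these, 8 (15.4%) had an optimal summit within 500 bp of a start, close to the 13.3% of all protein-coding genes, and 34 (65.4%) had a candidate, beside 50.5% of all protein-coding genes. The list includes the non-coding heat shock RNA lncRNA:Hsromega. The highest signals were at the J-domain genes mrj (471, rank 481) and CG5001 (469, rank 487), whose products hand clients to Hsp70. They were followed by stv (431, rank 588), which encodes Starvin, and Hsc70-5 (425, rank 601), the mitochondrial Hsp70. The summit offsets were -324 bp for mrj, -1 bp for CG5001, -499 bp for stv, at the edge of the 500 bp window, and -16 bp for Hsc70-5. lncRNA:Hsromega had a signal of 337 at rank 936, CG11267, the mitochondrial Hsp10, 324 at rank 1006, DnaJ-H 204 at rank 2219 and the chaperonin subunit gene CCT3 173 at rank 2891. Their offsets were 205, -130, -121 and -460 bp, in that order. For DnaJ-H and CCT3 the replicates were far apart, with ranks of 1294 and 1823 in the replicate 3 list against 6570 and 9678 in the replicate 2 list.

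The same shares of all protein-coding genes, 13.3% for an optimal start summit and 50.5% for a candidate, apply to the counts by class. Among them, 3 of 11 J-domain genes had an optimal start summit and all 11 had a candidate, and 1 of 8 chaperonin CCT genes had an optimal one and all 8 a candidate. In the Hsp70 family the counts were 1 optimal and 4 candidates among 12 genes. The 6 heat-inducible Hsp70 copies had no candidate within 500 bp of a start, but the copies are near-identical and reads from them may not have been placed by the authors' alignment, so their absence is uncertain. The other 2 genes of the Hsp90 family, Gp93 and Trap1, had candidates and no optimal summit. Of 5 further small heat shock genes, 0 had an optimal summit and 1, CG14207, had a candidate. Gp93, Trap1 and CG14207 are named because their counts are small, a choice made after their values were seen.

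Heat shock elements were found at a larger share of member starts than of all starts. They were found at Hsp83, at Hsp26 and Hsp22 with middle peaks, and at genes with weak candidates. Hsp27, with a strong peak, had none in the window searched. In the window from 250 bp upstream to 50 bp downstream, the exact element with 3 units, searched on both strands, was found at 1 of 13 distinct member starts, beside 0.418% of 19607 protein-coding starts. That start was Hsp68, which had 3 overlapping matches between -182 and -160 bp and no optimal summit. With 1 mismatch allowed, a form added after the data were seen, 5 members (Hsp83, Hsp22, Hsp23, Hsp26 and Hsp68) had a match, at 6 of 13 starts (46.2%) beside 8.13% of all starts. The form GAANNTTC, which overlaps the longer element and reads the same on both strands, was found in 7 members, at 61.5% of starts beside 9.34% of all. TTCNNGAA was found in Hsp23, Hsp26 and Hsp68, at 30.8% of starts beside 7.61% of all. TATAAA was found in 8 members, all but Hsp67Ba and Hsf, at 84.6% of starts beside 42.2% of all. GAGAG was found in Hsp22, Hsp23, Hsp26 and Hsp67Bb, at 38.5% of starts beside 33.1% of all, and TATCGATA at the outer start of Hsp83 alone, beside 7.98% of all starts.

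Measured from the summits, the matches lay at different distances in each gene. At Hsp83, 4 overlapping matches with 1 mismatch lay within 100 bp, the nearest centred 39 bp downstream of the summit, in the array shown with the sequences. At Hsp26, a GAANNTTC was centred 2 bp from the summit, the 1-mismatch element 88 bp upstream, and 6 partly overlapping GAGAG matches lay within 100 bp, the nearest 61 bp downstream. At Hsp27, the strong summit had neither an element nor GAGAG within 100 bp. Its nearest element with 1 mismatch was centred 200 bp upstream of the summit, beyond the promoter window and at the left end of the printed sequence. At Hsp22 the nearest such element was 364 bp downstream of the summit, next to the inner start, and 13 GAGAG matches lay within 500 bp of the summit but none within 100 bp. At Hsp23, the weak candidate summit had a 1-mismatch element centred 14 bp upstream, closer than at any of the 4 genes with an optimal summit. At Hsp68, the candidate upstream of the start had a 1-mismatch element centred 46 bp downstream and the nearest exact element 68 bp upstream, and the candidate downstream of the start had none within 100 bp. Of the 5 members with a 1-mismatch element in the promoter, 4 (Hsp83, Hsp26, Hsp23 and Hsp68) thus had one within 100 bp of a summit, optimal or candidate, at their start. Of the 3 with an optimal start summit, 2 (Hsp83 and Hsp26) had one within 100 bp of it. Elements and summits were both taken near the same starts, which in part sets these counts. The genome shares that follow have no such choice and are not their base. Across the genome, 4.96% of optimal summits had a 1-mismatch element within 100 bp, beside 4.93% of other pooled candidates, and for GAGAG the shares were 23.5% and 23.8%. TATAAA was found at 38.4% of optimal summits and 26.6% of other candidates, and TATCGATA at 3.00% and 1.84%. A match is a run of letters and does not show that a factor was bound.

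**Figure D4:**
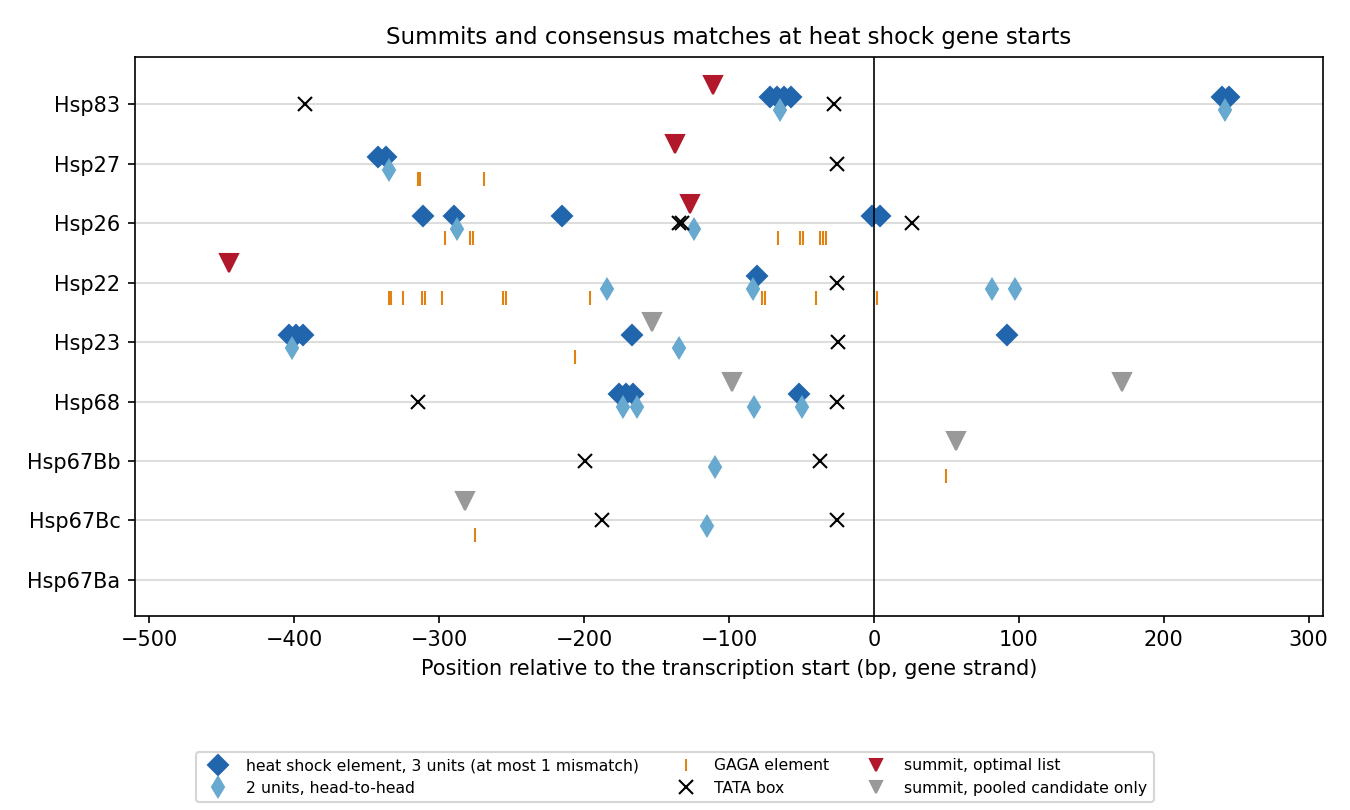
Centres of consensus matches and positions of summits by distance from the transcription start (horizontal axis, bp on the gene strand), 1 row per gene. Rows are for the inner starts of Hsp83 and Hsp22, the outer starts of Hsp26 and Hsp67Bb and the single starts of Hsp27, Hsp23, Hsp68, Hsp67Bc and Hsp67Ba. Hsf is not drawn. Red triangles are optimal summits and grey ones pooled candidates only; the red triangle lies 39 bp from the nearest blue heat shock element at Hsp83 and 200 bp from it at Hsp27, and Hsp67Ba has neither.

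The base composition at the summits also varied. Within 100 bp, GC content was 46.3% at the Hsp83 promoter summit, 39.3% at Hsp27, 29.9% at Hsp26, and 28.9% at both Hsp22 and the Hsp83 intron. All optimal summits had 35.5% ± 7.68 (SD across peaks, n = 2964), and other pooled candidates 40.5% ± 8.72 (n = 27020), so the Hsp83 promoter summit was above the mean of the optimal peaks by more than 1 SD and the other member summits were within 1 SD of it. The part of base composition in these peaks was not tested.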

How the data were processed

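The deposited files are peak lists on dm6 and dm3, 1 optimal and 1 pooled candidate list for the series and 1 candidate list per replicate. Chromatin was sonicated, per the labels. No aligner, peak caller or reproducibility threshold is named in the sources used here. The authors deposited a signal value for each peak and stated no normalization. The −log10 q value deposited by the authors was the same for all optimal peaks and was not used to rank. It was 3.03 at the optimal member peaks and at the candidate shared by Hsp67Bb and Hsp67Bc. At the start candidates it was lower for Hsf (1.89), Hsp23 (1.85) and Hsp68 (1.68 and 1.28). Among the candidates inside Hsf it went down to 0.552. Summit positions came from the deposited offsets within peaks, a distance in bp.

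The files give no read counts, so depth is unknown. Peaks on 2L, 2R, 3L, 3R, 4 and X were ranked by signal, which left 2964 of 2980 optimal and 29984 of 30000 pooled peaks. The optimal peaks were the upper part of the pooled list. Annotation was Ensembl release 115 (BDGP6.54). Coordinates are 1-based on dm6, and the dm3 lists served only to compare replicate numbers. A candidate in a replicate list was matched when its summit lay within 200 bp. The members and gene lists were chosen with earlier results of these data known. The named genes are all members, the genes of the cluster or with a start within 500 bp of a member's summit, up to 8 other chaperone genes with an optimal start summit, and the promoter peaks next in rank; Gp93, Trap1 and CG14207 fall outside this rule. With 1 group of 2 samples no test was made. The assignment of summits was tested on simulated data. The tools were pandas 2.3.3, NumPy 2.4.6 and matplotlib 3.10.9 under Python 3.11.15. Alternatives covered the window, a stricter list, each replicate's own list, the starts, the background and the motif window.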

Additional observations from a re-analysis of the deposited data

How the results depend on the processing

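The count of members with an optimal summit at a start was 4 and stayed between 3 and 6 under every alternative run except the upper 50% of the optimal list, where it was 2 (Hsp83 and Hsp27). It was 4 in the upper 2964 peaks of each replicate's own list. Members with a candidate at a start numbered 9 in the pooled list, 7 in the whole replicate 3 list and 9 in the whole replicate 2 list. In the 67B cluster the count of members with an optimal start summit was 3, and 1 with the upper 50%. It was 2 with a window of 200 bp or the outermost starts only, where Hsp22 dropped out, and 4 with a window of 1000 bp. The percent of all protein-coding genes was 13.3, and it was 7.28 with the upper 50% and 26.4 among genes with a pooled candidate. The other chaperone genes numbered 8, and 4 with a window of 200 bp. Members with an optimal summit within 2 kb numbered 9, and 3 when the summit had to lie inside the gene and 3 with the upper 50%. Members with GAANNTTC in the promoter numbered 7, and 2 in the window centred on an optimal summit, but only 3 of the 7 have an optimal start summit and could count. Around any start summit, a window added after the data were seen, 4 of the 7 had it. Of 40 alternatives to these main counts, 31 stayed within 1.5 times. A stricter list holds fewer peaks by construction. Signals cannot be compared between lists, ranks carry no error of their own, and the depth of the libraries limits the weak candidates to an unknown degree. No paired analysis was possible because there is only 1 group.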
